A study of Mus musculus with 6 samples.

Results

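Heat shock proteins and chaperones were followed in i2PS and E14TG2A cells as a set of 10 mouse genes named by symbol: Hspa1a, Hspa1b, Hspa5, Hspa8, Hsp90aa1, Hsp90ab1, Hspb1, Hspd1, Hspe1 and Hsph1. The array lists probes for 19053 named genes, and every probe listed under one of these symbols was taken, 18 in all for 9 of the genes. No probe is listed for Hsp90ab1, which was not analysed here. The i2PS cells are of the BALB/c strain and came from liver hepatocytes that were made pluripotent inside the animal, by factors the labels do not name. E14TG2A is a purchased embryonic stem cell line of strain Sv129, taken from the inner cell mass of the blastocyst. Cultures of both kinds began on mouse embryonic fibroblast feeders with LIF and were moved to gelatin for 3 passages. Each line contributed 3 arrays, described as biological replicates, and the tests therefore rest on how far cultures of 1 induced and 1 embryonic line vary. Strain, tissue of origin and reprogramming cannot be told apart in this design. In such bulk RNA, fewer cells making a transcript and less of it per cell cannot be told apart either.

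Averaged over all probes, the arrays had signals of 340.2 to 356.9 in i2PS, against 227.9 in E14TG2A replicate 1 and 358.8 and 402.7 in the other E14TG2A arrays, so that one E14TG2A array was dim. All 10 pluripotency markers chosen for the check, among them Pou5f1 and Nanog, were detected on every array. Of all tested genes 22.4% were called higher in i2PS and 19.6% lower, and of these markers 3 were higher and 0 lower. Their summed background-corrected signals did not overlap, at 56120 to 57600 in i2PS and 47050 to 51590 in E14TG2A, and their part in the results was not tested. Of 13 fibroblast markers with a probe, 2 or 3 were detected per array in i2PS and 2 or 3 in E14TG2A, with sums of 175.0 to 255.6 in i2PS and 215.9 to 279.3 in E14TG2A. Of 12 hepatocyte markers, again 2 or 3 were detected per array in either line, Alb and Afp on none, with sums of 115.8 to 127.7 in i2PS and 116.1 to 137.0 in E14TG2A. The fibroblast and hepatocyte sums overlapped between the lines. Only 2 fibroblast markers could be tested, 1 called higher and 1 lower in i2PS, and of 2 tested hepatocyte markers 0 were called.

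Heat shock proteins hold newly made or damaged proteins in a state from which they can fold. Members of the HSP70 family bind short stretches of unfolded chain, are driven by J proteins and are reset by nucleotide exchange factors, among them the HSP110 proteins. HSP90 takes over clients such as kinases and hormone receptors at a later step, small heat shock proteins keep unfolded chains from aggregating, and the chaperonins enclose a chain in a chamber. Some forms are made at all times, and others are induced when the heat shock factors bind inverted GAA repeats, called heat shock elements, in their promoters. Embryonic stem cells are known for a high constitutive content of several of these proteins.

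Promoter sequences are shown first for the chaperonin pair, because these adjoining genes are transcribed away from each other and their readings can be set beside the DNA they share. All sequences are from RefSeq, build GRCm38.p6, written 5′ to 3′ on the strand of the named gene. They are reference sequences and were not read in either line, whose strains may differ from them. The stretch between the downstream start site of Hspd1 and the start site of Hspe1, chr1:55087933-55088147, plus strand, has 215 bases. Capitals mark heat shock element pairs, GAANNTTC or TTCNNGAA, which here overlap in a run of 18 bases. The same marking is used for Hsph1 (chr5:149636288-149636565, minus strand, through base 28 of the transcript) and for Hspb1 (chr5:135887669-135887918, plus strand, up to the start site). The Hsph1 start site used lies inside the RefSeq span of the gene, which reaches to 149636498 on its upstream side. A further Hsph1 window, at another start site inside that span, held the same pairs.
Hspe1 and Hspd1: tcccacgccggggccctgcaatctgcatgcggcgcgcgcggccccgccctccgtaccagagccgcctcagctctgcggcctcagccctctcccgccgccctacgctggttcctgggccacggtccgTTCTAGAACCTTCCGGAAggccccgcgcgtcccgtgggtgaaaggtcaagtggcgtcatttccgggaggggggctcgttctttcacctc
Hsph1: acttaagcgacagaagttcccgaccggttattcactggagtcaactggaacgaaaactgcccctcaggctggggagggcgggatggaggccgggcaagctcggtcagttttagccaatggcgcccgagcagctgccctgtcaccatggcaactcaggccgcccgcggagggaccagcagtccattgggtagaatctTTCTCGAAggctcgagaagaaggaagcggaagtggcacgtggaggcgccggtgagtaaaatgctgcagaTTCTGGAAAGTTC
Hspb1: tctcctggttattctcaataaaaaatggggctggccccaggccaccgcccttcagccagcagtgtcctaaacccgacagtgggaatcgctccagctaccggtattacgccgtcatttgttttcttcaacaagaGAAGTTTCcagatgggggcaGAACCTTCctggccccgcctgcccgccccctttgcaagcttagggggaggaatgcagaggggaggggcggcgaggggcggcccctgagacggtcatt

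Windows of 300 bases around the start site were on file for 7 of the 10 genes, all but Hspa8, Hsp90aa1 and Hsp90ab1. At least 1 GAANNTTC was found in 6 of these genes, against 7.86% of the 32851 windows of that length in the whole table. The other arrangement, TTCNNGAA, was found in Hspd1, Hspe1 and Hsph1, against 8.52% of windows. Both pairs read the same on either strand. 3 units in a row, GAANNTTC followed by NN and a further GAA on either strand, stood in the same 3 genes, against 0.603% of windows, and this motif overlaps the pairs it is made of. Hspa5 held no pair but was the only member with CCAAT and CCACG spaced by 9 free bases on either strand, which 0.119% of windows hold. CCAAT alone, on either strand, was found in 5 of the 7 genes and 37.4% of windows, and TATAAA in 0 of them and 13.6% of windows. The genes had 9 windows in all, with more than 1 start site each for Hspd1 and Hsph1. The window at the other start site of Hspd1 held no pair, and the remaining Hspd1 window shares 285 bases with that of Hspe1, so the same DNA counts for both genes. A match describes letters only.

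A second set of sequences shows how alike the inducible HSP70 genes are before their start sites. Probe and transcript sequences were not compared, so this likeness does not show which RNA a probe reads. Hspa1a (chr17:34972157-34972406, minus strand) and Hspa1b (chr17:34959239-34959488, minus strand) have start sites 12918 bases apart. Their windows are identical at 296 of 300 positions. Capitals mark the differences before the start site, C44T, T47C and T249G, with Hspa1a first, counted from the 5′ end. The remaining one, C276T, lies past the start site and is not shown. Each window has a single GAANNTTC, at position -104 relative to the start site.
Hspa1a: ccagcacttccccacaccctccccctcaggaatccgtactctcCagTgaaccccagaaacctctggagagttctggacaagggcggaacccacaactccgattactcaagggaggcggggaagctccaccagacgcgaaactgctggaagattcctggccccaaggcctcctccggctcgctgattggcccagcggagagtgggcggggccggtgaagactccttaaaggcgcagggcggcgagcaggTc
Hspa1b: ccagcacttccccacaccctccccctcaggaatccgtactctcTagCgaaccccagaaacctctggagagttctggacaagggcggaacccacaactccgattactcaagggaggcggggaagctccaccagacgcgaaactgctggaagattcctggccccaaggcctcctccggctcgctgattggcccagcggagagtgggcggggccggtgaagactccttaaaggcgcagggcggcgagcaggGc

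Hspd1, the mitochondrial chaperonin, was higher in i2PS than in E14TG2A, and Hsp90aa1, the inducible cytosolic HSP90, was modestly lower. Hspa1a, an inducible HSP70, was lower too and fell below detection in i2PS. Hspa8, Hspb1, Hspe1 and Hsph1 did not pass the test, and Hspa1b and Hspa5 were detected on no array. A probe counted as detected at a detection p under 0.01 and was kept when all 3 arrays of at least 1 line detected it, which left 11 of the 18 probes and 7 of the 9 genes. Differences are i2PS minus E14TG2A on a log2 scale after background correction and quantile normalization, each with its SE and n = 3 arrays per line, and a gene was called by its brightest kept probe at a limma adjusted p under 0.05. Of the 7 tested members 1 was higher, against 22.4% of all 8651 tested genes, and 2 were lower, against 19.6%. Together these are 42.9% of the members, where 42% of all genes were called, so that the members were called about as often as genes in general. By probe 5 of 11 were called (45.5%), against 40.6% of the 12841 kept probes. The arrays of the lines did not overlap for 5 of the 7 members, against 55.8% of genes. The median difference was 0.22 over the 7 and 0.03 over all tested genes. Hspa1a was kept only through E14TG2A, where it is high, so these counts and medians describe the members and support nothing further. Without the dim array E14TG2A replicate 1, 5 of the 7 were called, 3 higher and 2 lower. Calls over all kept probes rose as well, from 5219 to 5903. The share of all genes called was not worked out for that fit, so its member count is not set against one.

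**Figure D1:**
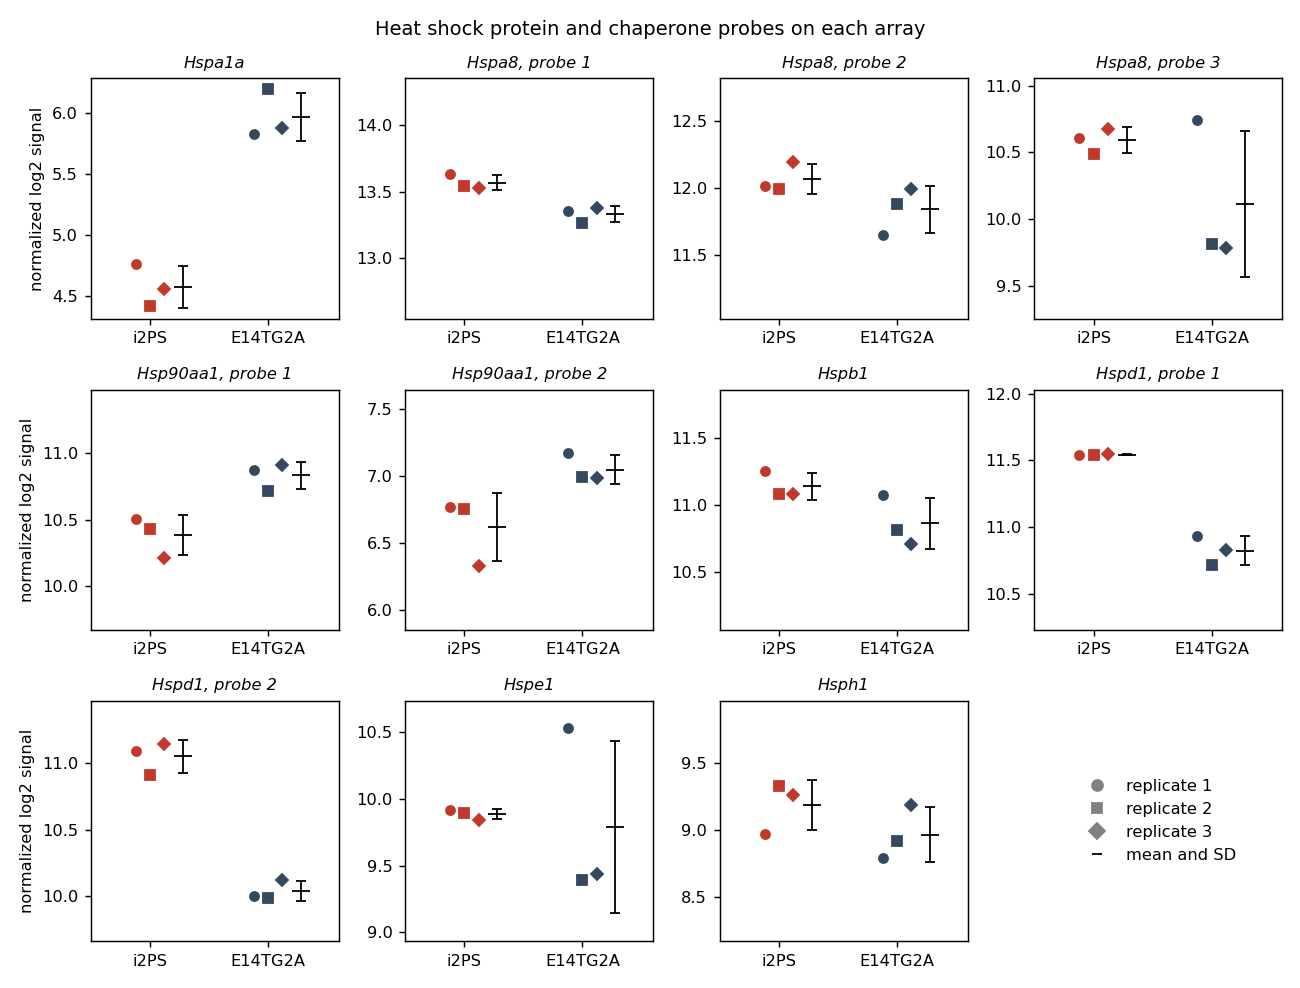
Normalized log2 signal of the 11 kept probes on each array, i2PS left and E14TG2A right, 1 panel per probe with its own range. Symbols mark the replicate, and bars give the mean and SD. For Hspe1 and Hspa8 probe 3, E14TG2A replicate 1 lies above all 3 i2PS arrays, while the other E14TG2A arrays lie below them.

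The 2 probes of Hspd1 gave the clearest rise among the members. Hspd1 (chromosome 1, 55077833 to 55088243) encodes the large ring subunit of the mitochondrial chaperonin, known as HSP60. Its brighter probe read 11.54, 11.54 and 11.55 log2 units in i2PS, against 10.93, 10.71 and 10.83 in E14TG2A. The lowest i2PS array thus stood above the highest E14TG2A array, and the i2PS arrays were nearly equal to each other. This was a difference of 0.72 ± 0.11, or 1.65-fold (limma adjusted p = 9.43e-04). The second probe read 11.09, 10.91 and 11.14 in i2PS, against 10.01, 9.99 and 10.12 in E14TG2A, again without overlap. It differed by 1.01 ± 0.11, or 2.01-fold (adjusted p = 1.97e-04). Before normalization the dim E14TG2A array had only 1074.3 units of signal for the brighter probe, against 3041.4 to 3227.6 in i2PS and 1929.0 and 2413.4 in the other E14TG2A arrays, so the order of the lines did not come from that array alone. With it left out the difference was 0.77. Equal medians in place of quantile normalization left the second probe past the threshold (1.21, adjusted p = 0.0155) and the brighter one not (0.90, adjusted p = 0.11). That fit gave both probes the same SE of 0.35, against 0.11 in the main fit.

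Hspe1 (chromosome 1, 55088148 to 55091317) encodes the small cap subunit, HSP10, that closes the chamber of HSP60. Its single probe read 9.92, 9.89 and 9.84 in i2PS, against 10.53, 9.39 and 9.44 in E14TG2A. The i2PS arrays lay between E14TG2A replicate 1 and the other E14TG2A arrays, so the lines overlapped. The difference of 0.10 ± 0.27 did not pass the test (adjusted p = 0.79), with a 95% confidence interval of -0.50 to 0.70 that lies within 2-fold. One array decides this value. Without E14TG2A replicate 1 the difference was 0.47 ± 0.10 and passed (adjusted p = 0.00641), and without E14TG2A replicate 2 or replicate 3 it turned to -0.10 and -0.08. As deposited, its signals were 1054.5, 1082.3 and 1018.9 in i2PS, against 816.1, 810.8 and 999.0 in E14TG2A, so that E14TG2A replicate 1 lay below all i2PS arrays before normalization and above them after it.

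Whether the chaperonin genes differed unequally between the lines was tested on the within-array difference of their log2 values. Hspd1 minus Hspe1 ran from 1.62 to 1.70 in i2PS and from 0.40 to 1.39 in E14TG2A, without overlap. The gap between the line means was 0.62, and an exact two-sided permutation test gave p = 0.1, the smallest that 3 against 3 arrays allow, or 0.15 after adjustment over the 3 pairs of members tested. With single arrays left out the gap ran from 0.30, without E14TG2A replicate 1, to 0.80, without E14TG2A replicate 3. The exact permutation p was 0.1 without any 1 E14TG2A array and 0.3 without any 1 i2PS array. Both genes flank the run of 18 bases shown in capitals above. Their RefSeq models overlap by 96 bases, because Hspd1 also has a start site on the far side of that of Hspe1. Of the 10 tested genes nearest to Hspd1, Hspe1 among them, 2 were higher, 4 were lower and 4 were not called, with a median of -0.16. Over all tested genes 22.4% were higher and 19.6% lower.

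Among the HSP70 genes, Hspa1a (chromosome 17, 34969359 to 34972156) encodes a cytosolic form that is strongly induced by heat. Of its 3 probes 1 was kept. This probe read 4.76, 4.42 and 4.56 in i2PS, against 5.83, 6.19 and 5.87 in E14TG2A. All E14TG2A arrays detected it and no i2PS array did, with detection p-values of 0.0256, 0.233 and 0.0972 in i2PS. Means were 4.58 in i2PS and 5.96 in E14TG2A. Against the lowest detected signal of the i2PS arrays, Hspa1a was at least 2.01-fold lower in i2PS by its mean after background correction. The bound allows for no error and holds for this processing only. This bound was not tested itself, and the fitted difference had a limma adjusted p of 1.21e-04. The deposited signals behind this were small, 101.6, 97.8 and 99.1 in i2PS against 105.2, 155.4 and 155.9 in E14TG2A. The dim E14TG2A array was thus close to the i2PS arrays before correction. The fitted difference of -1.39 shrank to -0.48 without background correction (adjusted p = 5.53e-04), where it still passed. The other Hspa1a probes were not detected on any array.

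Hspa1b (chromosome 17, 34956429 to 34959238) encodes a nearly identical inducible HSP70. Neither of its probes was detected on any array, and the brightest reading, 111.9 in E14TG2A replicate 3, had a detection p of 0.0235. No level can be given for it in either line. Because the coding regions of Hspa1a and Hspa1b are closely alike, a reading under one symbol may include RNA of the other, and the Hspa1a value is uncertain in this respect. The 10 tested genes around Hspa1a had a median of 0.02, with 3 higher and 3 lower, where 22.4% and 19.6% of all tested genes were. The nearest before Hspa1a was 1110038B12Rik at -0.55 ± 0.13, and the nearest after it Lsm2 at 0.50 ± 0.15.

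Hspa8 (chromosome 9, 40801276 to 40805202) encodes HSC70, the constitutive cytosolic HSP70. All 3 of its probes were kept. The brightest read 13.63, 13.54 and 13.53 in i2PS, against 13.35, 13.27 and 13.38 in E14TG2A. Although these arrays did not overlap, the difference of 0.23 ± 0.10 did not pass the test (adjusted p = 0.103). The second probe differed by 0.23 ± 0.13 and overlapped between the lines. The remaining probe read 10.61, 10.49 and 10.68 in i2PS, against 10.74, 9.81 and 9.78 in E14TG2A. As for Hspe1, E14TG2A replicate 1 lay above all i2PS arrays and the other E14TG2A arrays below them. This probe differed by 0.48 ± 0.23 (adjusted p = 0.129), and without E14TG2A replicate 1 by 0.79 ± 0.11 (adjusted p = 7.53e-04). The brightest probe passed under 6 of 19 alternatives, with adjusted p from 0.0162 to 0.57 over all of them and differences from 0.20 to 0.42.

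The within-array difference of Hspa1a and Hspa8 rests on i2PS signals that were not detected, so no size is given. Its values did not overlap between the lines. The exact permutation p was 0.1 (adjusted over the 3 pairs 0.15), the smallest that 3 against 3 arrays allow, so this test could not pass. Hspa5 (chromosome 2, 34772090 to 34776529) encodes BiP, the HSP70 of the endoplasmic reticulum. The one probe listed for Hspa5 was detected on no array, with detection p-values of 0.349, 0.0929 and 0.218 in i2PS and 0.583, 0.261 and 0.389 in E14TG2A. Nothing can be said of its level. Over all 7 probes of members that were not kept, signals lay between 81.6 and 111.9.

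Hsph1 (chromosome 5, 149616843 to 149636498), an HSP110 protein that resets HSP70 by exchanging its nucleotide, read 8.97, 9.33 and 9.26 in i2PS, against 8.79, 8.92 and 9.19 in E14TG2A. The lines overlapped and the difference of 0.22 ± 0.15 was not called (adjusted p = 0.247, interval -0.11 to 0.55). Relative to Hspa8 within each array it differed between the lines by -0.01 (exact permutation p = 0.9, also after adjustment). Its sign turned under 3 alternatives, with -0.10 to 0.13 when single arrays were left out. Hsph1 carries 3 heat shock element units in a row in the window shown above, as do Hspd1 and Hspe1, and these 3 genes gave differences of 0.22, 0.72 and 0.10.

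**Figure D2:**
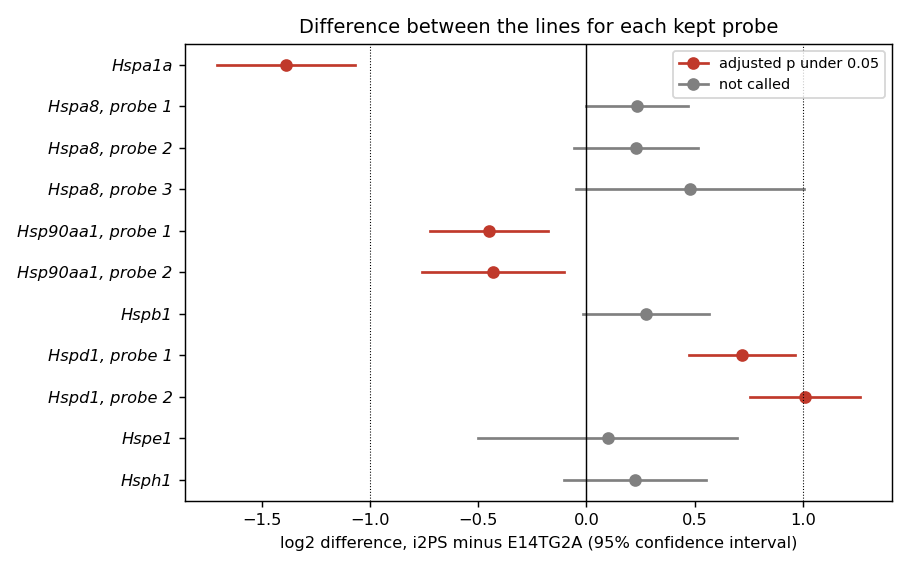
Log2 difference of each kept probe, i2PS minus E14TG2A, with the 95% confidence interval from limma, and dotted lines at 2-fold. Red marks adjusted p under 0.05. Both Hspd1 probes lie above 0 and both Hsp90aa1 probes below it, and the Hspa1a point rests on i2PS signals that were not detected.

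Hsp90aa1 (chromosome 12, 110691036 to 110696395) encodes the stress-inducible form of cytosolic HSP90. Its brighter kept probe read 10.50, 10.43 and 10.21 in i2PS, against 10.87, 10.72 and 10.91 in E14TG2A. The second read 6.77, 6.76 and 6.32 in i2PS, against 7.17, 6.99 and 6.98 in E14TG2A. The lines did not overlap on either probe, and i2PS replicate 3 was the lowest array on both. Hsp90aa1 fell by 0.45 ± 0.12 in i2PS by the brighter probe, which is 1.37-fold (adjusted p = 0.0167), and by 0.43 ± 0.14 by the second (adjusted p = 0.0397). The last probe was detected on no array. Without i2PS replicate 3 the brighter probe no longer passed (-0.36, adjusted p = 0.0803). Nor did it pass with equal medians (-0.25, adjusted p = 0.767), where its SE was 0.35, the same as for the Hspd1 probes. The second probe lost its call without any 1 array other than i2PS replicate 1 (adjusted p = 0.0558 to 0.151).

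Genes around Hsp90aa1 were lower in i2PS as well. Of the 10 tested genes on each side of it 17 were lower, 0 were higher and 3 were not called, with a median of -0.92. Among all tested genes 19.6% were lower and 22.4% higher. Background values for such blocks are given by the neighbours of the other members, 10 tested genes each, whose medians ran from -0.16 to 0.40. The nearest tested gene before it, Dync1h1, the heavy chain of cytoplasmic dynein, was at -1.54 ± 0.20 (adjusted p = 4.60e-04), and the nearest after it, Wdr20, at -1.10 ± 0.14 (adjusted p = 4.32e-04). Rian, an imprinted noncoding RNA, had the largest fitted fall of the 20 but was detected on no i2PS array. Means were 4.30 in i2PS and 7.46 in E14TG2A, so that Rian was at least 5.64-fold lower in i2PS by the same kind of bound, for this processing only. Its fitted difference of -3.16 (limma adjusted p = 1.07e-06) was -1.44 without background correction. Of the 20 neighbours 14 were detected on all arrays, 13 of them lower, and the others were kept only through E14TG2A, where they are high, 3 of them detected on no i2PS array. With those 3 at their bounds the median was -0.85. Hsp90aa1 at -0.45 was among the least lowered of its surroundings, since 3 of the 20 neighbours lay nearer to 0. Without background correction the neighbours' median was -0.56. With equal medians it was -0.76, and 4 of the 20 were called lower. Whether position has a part in the Hsp90aa1 value was not tested.

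**Figure D3:**
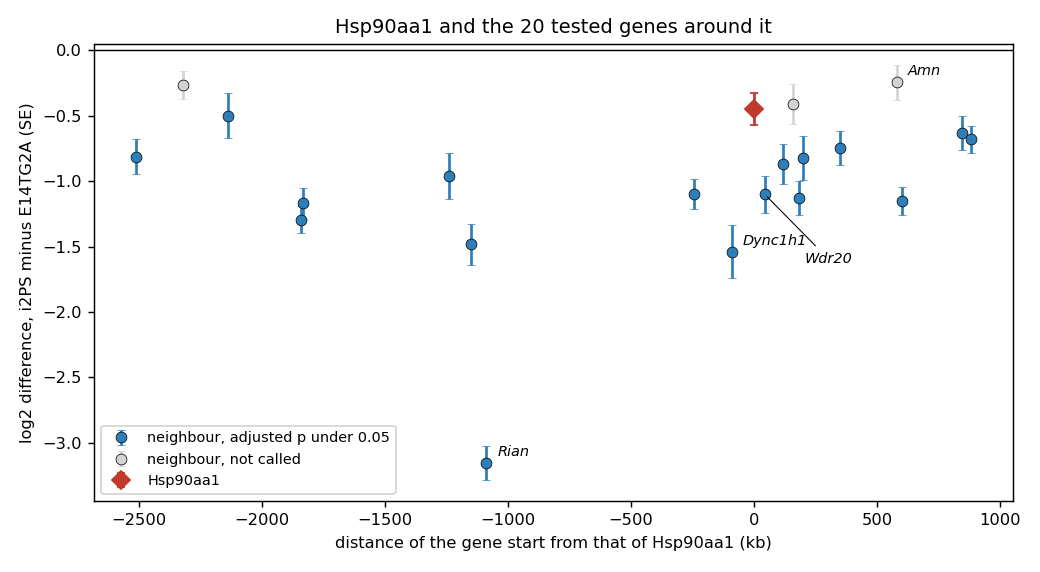
Log2 difference, i2PS minus E14TG2A, with its SE, for Hsp90aa1 and the 20 tested genes around it, against the distance between gene starts in kb. All points lie below 0, and Hsp90aa1 at -0.45 lies above the neighbours' median of -0.92. The Rian point rests on i2PS signals that were not detected.

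Hspb1 (chromosome 5, 135887919 to 135889563) encodes a small heat shock protein that binds unfolded chains and actin, known as HSP25 in the mouse. Its kept probe read 11.26, 11.08 and 11.08 in i2PS, against 11.08, 10.81 and 10.71 in E14TG2A. The arrays only just failed to overlap, with the highest E14TG2A array, replicate 1, beside the lowest i2PS arrays. The difference of 0.28 ± 0.13 was not called (adjusted p = 0.117, interval -0.02 to 0.57). Without E14TG2A replicate 1 it was 0.38 ± 0.11 and passed (adjusted p = 0.0239). A second probe of Hspb1 was detected on no array.

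The other genes of the chaperone system were taken from 10 lists of 105 genes in all, members left out, of which 100 had a probe and 78 were tested. Of these 12 were higher in i2PS, 12 were lower and 54 were not called, so that 30.8% were called against 42% of all genes. Their median difference was 0.05, beside 0.03 for all genes. The calls of 13 held when any 1 array was left out, 5 higher and 8 lower. With equal medians only 3 were called, 1 higher and 2 lower, and called probes over all fell from 5219 to 857. None of the lists was tested as a set.

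Of the heat shock factors and their partners, 4 of 5 genes were tested, 1 higher and 2 lower (75% called, against 42% of all genes). Hsf1, the main activator of the heat shock response, has no listed probe. Hsf2, a second factor active in development, read 5.97, 5.40 and 5.73 in i2PS, against 6.71, 5.41 and 5.99 in E14TG2A, and its difference of -0.34 ± 0.29 was not called (adjusted p = 0.376). Without E14TG2A replicate 1 it was 4.19e-04. Hsf4, best known from the lens, was at -0.79 ± 0.13 (adjusted p = 0.00143), was detected on 1 of 3 i2PS arrays and was at -0.27 without background correction. Hsbp1, which binds Hsf1 and restrains it, was at -0.41 ± 0.11 (adjusted p = 0.0156). It no longer passed without i2PS replicate 2 (0.0718) or E14TG2A replicate 2 (0.0545). Hsf2bp, named for its binding to Hsf2, was at 0.79 ± 0.17 (adjusted p = 0.00619), was detected on 1 of 3 E14TG2A arrays and was at 0.26 without background correction. Hsf4 and Hsf2bp were kept only through the line where they are high, so the count of this list supports nothing further.

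Small heat shock proteins other than Hspb1 were lower in 3 of 4 tested cases (75% called, against 42% of all genes), with a median of -0.60. Cryab and Hspb2 were kept only through E14TG2A, where they are high, so this count and median support nothing further. Cryab, alpha-B crystallin, read 5.28, 4.94 and 5.07 in i2PS, against 6.83, 6.91 and 7.03 in E14TG2A. The lines were far apart, although 2 of 3 i2PS arrays detected it. Its difference was -1.83 ± 0.13 (adjusted p = 1.51e-05), and -0.82 without background correction. Hspb8, a partner of Bag3 in clearing aggregates, fell by 0.66 ± 0.11 (adjusted p = 0.00159). Hspb2, whose RefSeq span on chromosome 9 (50751072 to 50752354) lies inside that of Cryab (50745951 to 50756636), so that the readings of the pair are uncertain, is named outside the rule. It was at -0.54 ± 0.13 (adjusted p = 0.0112), was detected on 1 i2PS array and did not pass without background correction (0.0794) or in the authors' processed table (0.0784). Hspb6 did not pass, at 0.06 ± 0.15.

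Among other HSP70 and HSP110 genes 2 of 4 tested were lower and 0 higher (50% called, against 42% of all genes). Hspa2, an HSP70 known from the testis, fell by 0.81 ± 0.12 (adjusted p = 6.97e-04). Hspa9, the mitochondrial HSP70 called mortalin, was at -0.40 ± 0.11 (adjusted p = 0.0204), opposite in sign to Hspd1 of the same compartment, and its call ended without i2PS replicates 2 or 3 or E14TG2A replicates 2 or 3, each left out alone (0.0574 to 0.08). It was the only 1 of 9 tested mitochondrial chaperones and proteases to be called (11.1%, against 42% of all genes). The 2 other HSP90 genes did not pass, Hsp90b1 of the endoplasmic reticulum at 0.18 ± 0.15 and Trap1 of the mitochondria at 0.33 ± 0.12 (adjusted p = 0.355 and 0.0592), although Trap1 passed under 5 of 19 alternatives.

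HSP90 co-chaperones were higher in 3 and lower in 2 of 14 tested cases (35.7% called, against 42% of all genes), with a median of 0.19. Ahsa1, which stimulates the ATPase of HSP90, read 9.91, 10.10 and 9.98 in i2PS, against 9.04, 8.80 and 9.05 in E14TG2A. It rose by 1.03 ± 0.12, or 2.05-fold (adjusted p = 2.31e-04), and passed under all 19 alternatives. Nudc, a co-chaperone of dynein regulators, rose by 0.50 ± 0.11 (adjusted p = 0.00637). Fkbp4, an immunophilin of steroid receptor complexes, was at -0.38 ± 0.10 (adjusted p = 0.0186), and missed the threshold without i2PS replicate 2 (0.0755), i2PS replicate 3 (0.0711) or E14TG2A replicate 2 (0.0637). Ppp5c, a phosphatase bound to HSP90, was at -0.39 ± 0.12 (adjusted p = 0.0309) and passed with E14TG2A replicate 3 left out but with none of the other arrays left out (0.0501 to 0.0997). It was at -0.02 when its probes were averaged.

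J proteins, which hand clients to HSP70, were higher in 2 and lower in 1 of 15 tested cases (20% called, against 42% of all genes). Dnajc2, which works at the ribosome, rose by 0.68 ± 0.11 (adjusted p = 0.0012). Dnajc5, a J protein of secretory vesicles, fell by 0.85 ± 0.10 (adjusted p = 3.31e-04). Dnajb12 was at 0.43 ± 0.11 (adjusted p = 0.0149), and missed the threshold without i2PS replicate 1 (0.0505), i2PS replicate 3 (0.0550) or E14TG2A replicate 3 (0.0506). Of 11 tested exchange factors and co-chaperones of HSP70, 2 were higher and 1 was lower (27.3% called, against 42% of all genes). Bag5, a nucleotide exchange factor, fell by 0.64 ± 0.12 (adjusted p = 0.00258). St13 was at 0.48 ± 0.15 and Bag1 at 0.34 ± 0.12 (adjusted p = 0.0318 and 0.0417), and both passed with E14TG2A replicate 3 left out but with none of the other arrays left out (0.0599 to 0.119 for St13, 0.0636 to 0.134 for Bag1).

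The cytosolic chaperonin TRiC and its helper prefoldin were higher in 3 and lower in 0 of 12 tested cases, with a median of 0.20. This is 25% called, against 42% of all genes. Pfdn1 and Cct7 were kept only through i2PS, where Pfdn1 is high, so this count and median support nothing further. Cct8, a TRiC subunit, rose by 0.45 ± 0.11 (adjusted p = 0.0103). Pfdn1, a prefoldin subunit, was at 0.54 ± 0.15 (adjusted p = 0.0194) and was detected on 1 of 3 E14TG2A arrays. Its call ended without any 1 i2PS array (0.0552 to 0.063) and without background correction (0.16, adjusted p = 0.094). Tcp1, another TRiC subunit and named outside the rule, was at 0.38 ± 0.11 (adjusted p = 0.0222), with a call that ended without i2PS replicates 1 or 2 or E14TG2A replicates 2 or 3, each left out alone (0.0561 to 0.0748). In the endoplasmic reticulum, where Hspa5 could not be read, 1 of 14 tested chaperones was higher and 1 was lower (14.3% called, against 42% of all genes). Serpinh1, the collagen chaperone HSP47, read 8.87, 8.97 and 8.86 in i2PS, against 10.14, 10.51 and 10.42 in E14TG2A. It fell by 1.45 ± 0.13, or 2.74-fold (adjusted p = 4.75e-05), and passed under all 19 alternatives. Pdia4, a disulfide isomerase, was at 0.35 ± 0.12 (adjusted p = 0.0497) and kept this call with E14TG2A replicate 1 left out but with no other array left out (0.1 to 0.158).

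**Figure D4:**
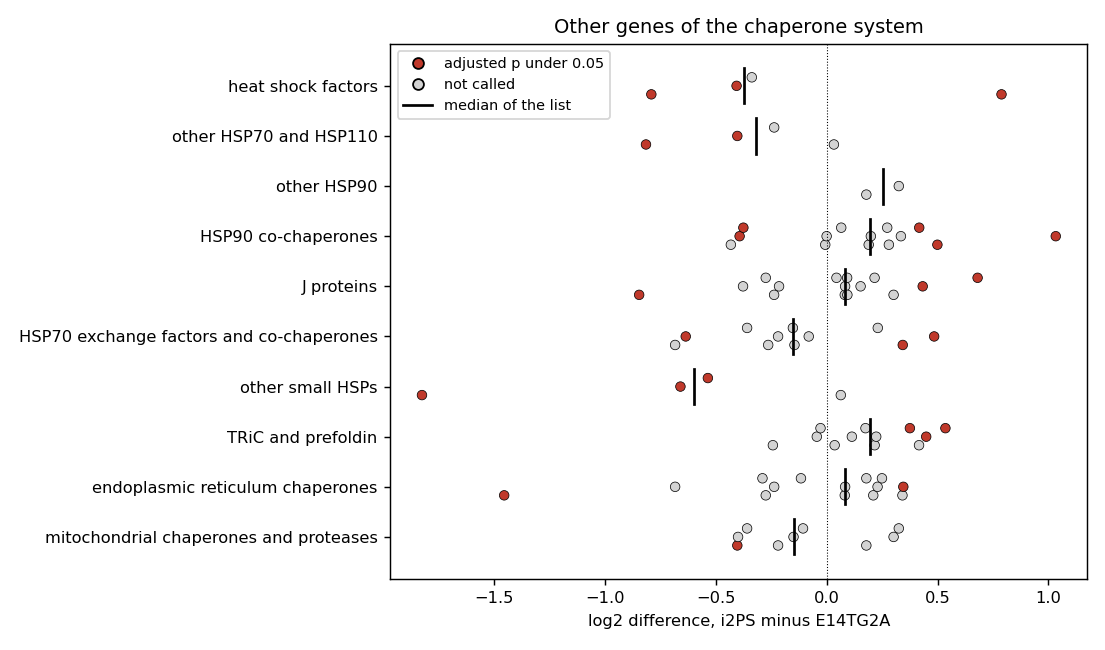
Log2 difference, i2PS minus E14TG2A, of the tested genes of 10 lists of the chaperone system, 1 point per gene, red where adjusted p is under 0.05, with the list's median as a bar. Genes may stand in 2 lists. Cryab and Serpinh1 lie farthest below 0, and Ahsa1 lies farthest above it.

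Besides Hsp90aa1, 3 of these called genes lie on chromosome 12, and their surroundings were looked up after their values were seen. Bag5 (111709488 to 111713256) lies past Hsp90aa1, in a stretch that overlaps the one above, and all 10 of the tested genes nearest to it were lower in i2PS, with a median of -0.91, beside -0.64 for Bag5. Around Ahsa1 (87266415 to 87273998) 5 of 10 were higher and 0 were lower, with a median of 0.33 beside 1.03 for Ahsa1. Around Hspa2 (76403812 to 76406938) 2 of 10 were higher and 2 were lower, with a median of 0.11 beside -0.81 for Hspa2. These counts stand beside 22.4% higher and 19.6% lower among all tested genes.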

How the data were processed

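Total RNA of 3 i2PS and 3 E14TG2A cultures was labelled with biotin and read on Illumina bead arrays of 45281 probes. The authors deposited signal intensity per probe, not normalized between arrays (medians 88.3 to 103.3), and a detection p-value beside each signal. GenomeStudio is named in the submitters' processing notes, without version or settings. A second deposited table of intensity values is quantile normalized on the linear scale, as read from the values, and served as an alternative.

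In limma 3.58.1 (R 4.3.3), neqc estimated background from the detection p-values, and an offset of 16 preceded quantile normalization and log2 values. Probes were named from the platform annotation through RefSeq gene numbers of GRCm38.p6, and 34885 carried 1 symbol. All 12841 kept probes were fitted with lmFit and eBayes, with Benjamini-Hochberg adjustment over them, and the code was tested on simulated data. The dim-line bound uses each array's lowest detected signal after this processing and allows for no error. Other chaperone genes are named by rule: Hsf1, Hsf2 and up to 2 rises and 2 falls per list, and, of the neighbours of Hsp90aa1, the nearest on each side and the largest fall. The members and lists were chosen with earlier results of these data known. Same-numbered arrays of the lines deviated from their line means with correlations of 0.01, -0.06 and 0.07, so no pairing by number was seen. With 3 arrays per line this cannot exclude one. Arrays give no counts, and their number limits the precision.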

Additional observations from a re-analysis of the deposited data

How the results depend on the processing

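Settings tried were other background corrections (normexp with an offset of 50, or none), equal medians, cyclic loess, the authors' processed table, 3 filters on dim probes, 1 probe or the mean of the probes per gene, a variance trend, array weights, the replicate block and each array left out. Under all that gave a value, 18 for Hspa1a, which leaves the fit when detection on all 6 arrays is asked, and 19 for Hspd1 and Hsp90aa1, none of these 3 genes changed sign. Equal medians moved the median of all genes to 0.19 and gave 857 called probes, 487 higher and 370 lower, against 5219. The SE was then 0.35 for every tested member, against 0.10 to 0.27 in the main fit, so calls lost there do not reflect a gene's own spread. There 1 member was called, 0 higher and 1 lower, with 1 other chaperone gene higher and 2 lower and 4 neighbours of Hsp90aa1 lower. Relative to the median of all genes Hspd1 was then at 0.71 and Hsp90aa1 at -0.44, against 0.69 and -0.48. Members called higher numbered 2 with normexp, no background correction, the authors' table or averaged probes, and 3 with a variance trend or array weights, where 5 members were called in all. Called probes rose there too, to 5532 with a variance trend and 6670 with array weights, against 5219, each out of the same 12841 kept probes. The share of all genes called was not worked out for these settings, so the member counts are not set against it. Requiring detection on all 6 arrays left 1 member lower. Other chaperone genes higher numbered 19 with a variance trend or array weights. The neighbours' median was -0.56 without background correction and in the authors' table. The value of Hsph1 minus Hspa8 was 0.00709 with cyclic loess. With single arrays left out, 2 to 5 members were called, 1 to 3 higher and 1 to 2 lower, beside 3678 to 5903 called probes. In these fits 6 to 16 other chaperone genes were higher. Hspe1 ranged from -0.10 to 0.47, Hsph1 minus Hspa8 from -0.10 to 0.13 and Hsf2 from -0.65 to 4.19e-04. The replicate block, which the array deviations do not bear out as a pairing, gave 4920 called probes and the same counts of members, 1 higher and 2 lower. A slide block was not run, since no slide is given in the sources used here.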
